A study of Mus musculus with 8 samples.

Results

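The myelin genes of mature oligodendrocytes were followed through hippocampus samples of 4 groups of male C57BL/6J mice. The 8 genes (Mbp, Mog, Mag, Mobp, Cnp, Mal, Ugt8a and Cldn11) were found by matching the accession of each array probe to a gene symbol, among 20136 genes with a symbol on the array. They were measured by 12 probes of 55633 that are not controls, each printed as 1 spot. The mice were 11 weeks old, with 8 mice in a group. AX+ME mice received mild treadmill exercise and an astaxanthin diet, AX mice stayed sedentary on the astaxanthin diet, ME mice received the exercise on placebo, and SED mice stayed sedentary on placebo. Astaxanthin is a red carotenoid made by an alga. Powder with 2% astaxanthin, or placebo powder, was mixed into the chow at 0.5%. There were 2 samples per group on 1 slide of 8 arrays: 1 sample carried the dye Cy3, the other Cy5, and no array held a second sample. The labels do not tell how 8 mice gave 2 samples, so the p-values measure a spread that may be technical.

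Oligodendrocytes wrap axons in myelin, a stack of cell membrane held together by dedicated proteins and rich in galactolipids, which speeds nerve conduction. The sheath turns over slowly, while its genes are transcribed at a high level in mature cells under transcription factors such as Sox10 and Myrf. In the hippocampus myelin lines both long-range and local axons. In bulk tissue, fewer oligodendrocytes and less RNA per oligodendrocyte cannot be told apart.

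Sox10 belongs to a family of proteins that bind short A and T rich cores, so the 250 bases before the start sites were searched on both strands for ACAAAG and ACAATG, the only motifs searched. RefSeq (GRCm38.p6) windows were used for 7 of the 8 genes, 9 windows in all. Of these, 4 held a match, against 25.2% of 32851 windows of the same length, and every match was ACAAAG, with no overlap between matches within a window. A pair of overlapping Mag windows hold the same match. The windows of Mobp, which had 6 matches, of Cnp and of Mag are shown because they hold the matches, with each match in capitals (CTTTGT is ACAAAG on the other strand). A match is a description of the letters, and binding was not measured here. The Mobp window is at chr9:120149492-120149741 (plus strand), the Cnp window at chr11:100574689-100574938 (plus strand) and the Mag window at chr7:30914864-30915113 (minus strand).
Mobp: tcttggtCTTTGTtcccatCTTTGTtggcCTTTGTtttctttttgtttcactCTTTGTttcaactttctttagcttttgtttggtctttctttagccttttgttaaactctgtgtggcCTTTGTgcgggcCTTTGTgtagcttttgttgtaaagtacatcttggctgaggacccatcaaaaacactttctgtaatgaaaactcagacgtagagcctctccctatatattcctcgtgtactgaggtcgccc
Cnp: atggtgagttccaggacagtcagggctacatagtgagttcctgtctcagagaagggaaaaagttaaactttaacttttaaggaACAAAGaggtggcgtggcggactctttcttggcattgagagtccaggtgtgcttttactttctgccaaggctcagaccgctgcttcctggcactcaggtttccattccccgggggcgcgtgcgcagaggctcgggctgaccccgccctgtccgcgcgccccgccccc
Mag: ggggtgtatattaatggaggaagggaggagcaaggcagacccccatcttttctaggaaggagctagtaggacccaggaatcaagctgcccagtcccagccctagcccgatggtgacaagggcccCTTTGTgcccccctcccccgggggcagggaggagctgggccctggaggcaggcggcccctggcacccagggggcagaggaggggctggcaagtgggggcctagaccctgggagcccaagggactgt

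The signal is the processed intensity of the sample's own dye, divided by the 75th percentile of its array, a ratio without unit. All 12 myelin probes were well above background on all 8 arrays, and none was saturated on any. In the dye channel that held no sample, 0.909% to 1.53% of spots were well above background. Both SED arrays have dim areas in array columns below 70, where the scanner software's correction of position (described with Mal) had an SD of 0.197 and 0.371 on the log2 scale, against 0.0529 to 0.107 on the other 6 arrays. There lie 5 of the 12 probes: Mal (column 19), Mobp (columns 30 and 59), Mog (column 51) and Mag (column 59). Mal, Mog and Mag have no other probe. Slide position and group cannot be told apart. The tissue label was set against 6 hippocampal neuron markers, which were all measured, with a summed ratio of 37.2 to 40.4 over the 8 samples. The number of arrays, 2 in a group, limits the precision.

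No myelin gene passed the test in any of 8 comparisons (limma, adjusted p threshold 0.05 over 37415 probes). Levels in SED were the highest group mean for 7 of the 8 genes, and levels in AX the lowest for 5, but the differences were small, and the genes furthest apart, Mal and Mog, lie in the dim columns. No share over all genes stands beside these counts of group means. By a stricter measure, SED was the highest in both dyes for 4 of 12 myelin probes, against 24.9% of all probes tested. In AX+ME against SED, 0 of 12 myelin probes passed, against 4.74% of all probes. In AX against SED, 0 of 12 passed, against 2.33% of all probes, and in ME against SED 0 of 12 passed, against 2.07%. At an unadjusted p under 0.05, 2, 3 and 2 of the 12 myelin probes stood out in AX+ME, AX and ME against SED, where 30.0%, 24.7% and 22.0% of all probes did. In the fit restricted to columns from 70 on, 0.00912% of all probes passed in AX+ME against SED, 0% in AX against SED and 0% in ME against SED. For AX+ME against ME and AX+ME against AX the share of all probes was 0%. It was 0.184% for the interaction of exercise and astaxanthin, 0.446% for exercised against sedentary mice and 0.35% for astaxanthin against placebo. No myelin probe passed in those 5 comparisons either.

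The median log2 difference of the 8 genes, with 1 probe a gene, was -0.11 in AX+ME, -0.11 in AX and -0.080 in ME against SED. The medians of all 16078 genes tested were -0.057, -0.066 and -0.043, and 60.4%, 63.5% and 60.3% of all genes were lower than in SED. Bright probes as a class were shifted the same way. Among 4094 probes with a mean ratio of 10 and over, 78.5%, 81.5% and 68.8% lay below SED in AX+ME, AX and ME, with medians of -0.12, -0.12 and -0.056. The 6 myelin probes of that brightness had medians of -0.087, -0.11 and -0.080.

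**Figure D1:**
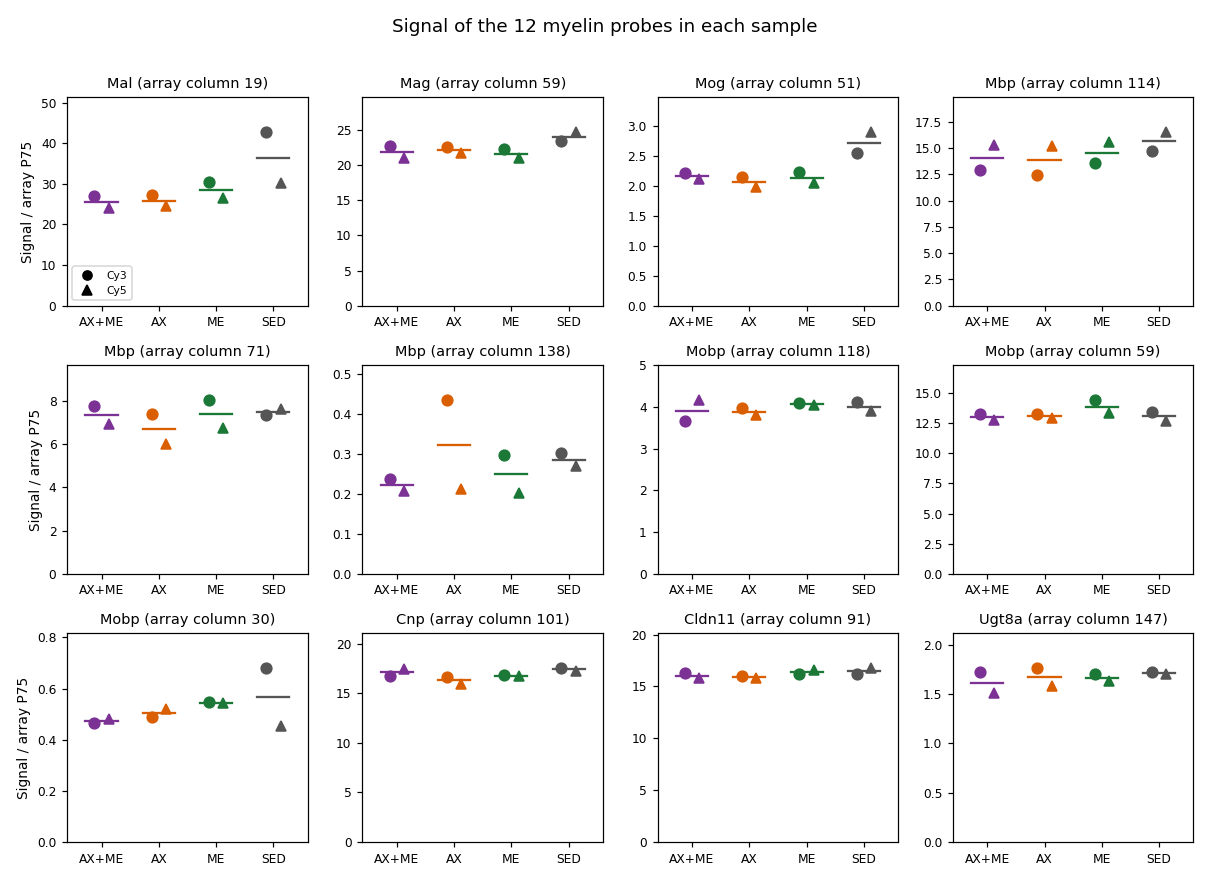
Signal over the array's 75th percentile (vertical axis, linear, from 0) for each of the 12 myelin probes in AX+ME, AX, ME and SED. Circles are Cy3 samples, triangles Cy5 samples and bars the mean of the 2. Mal and Mog stand higher in SED, while Cnp and Cldn11 lie nearly level over the groups.

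Mal encodes a proteolipid that sorts myelin membrane. Its Cy3 ratios were 27.0 in AX+ME, 27.3 in AX and 30.4 in ME, against 42.8 in SED. Its Cy5 ratios were 24.1 in AX+ME, 24.4 in AX and 26.5 in ME, against 30.1 in SED. SED was the highest in each dye, but the Cy3 ME sample lay above the Cy5 SED sample. The log2 difference was -0.49 in AX+ME (SE 0.11, adjusted p = 0.0732), -0.47 in AX (adjusted p = 0.0961) and -0.34 in ME (adjusted p = 0.178) against SED. The corresponding 95% intervals of the fold ran from 0.582 to 0.867, from 0.590 to 0.878 and from 0.647 to 0.964.

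The Mal values rest on a correction made by the scanner software. Feature Extraction multiplies each background-subtracted signal by a factor that follows position on the array (multiplicative detrending). At the Mal spot that factor was 1.35 on the Cy3 SED array and 2.01 on the Cy5 SED array, against 1.04 to 1.13 on the other 6 arrays. Before this step the intensity of Mal on the Cy5 arrays was 41894 in AX+ME, 47651 in AX and 49577 in ME, against 26943 in SED. Scaled to each array's 75th percentile, the Mal signal before detrending was 23.0, 23.5 and 24.5 in AX+ME, AX and ME, against 15.3 in SED, in Cy5. In Cy3 it was 25.6, 25.9 and 26.8, against 31.8 in SED. In Cy5 SED was thus the lowest group before the correction and the highest after it. The log2 difference of Mal without it was 0.14 in AX+ME (SE 0.26), 0.16 in AX and 0.21 in ME against SED. In the processed signal, SED lay above the mean of the other groups by 0.60 in Cy3 and 0.27 in Cy5 (log2). The spots around Mal had 0.23 and 0.088. Which signal is nearer to the RNA level was not tested.

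**Figure D2:**
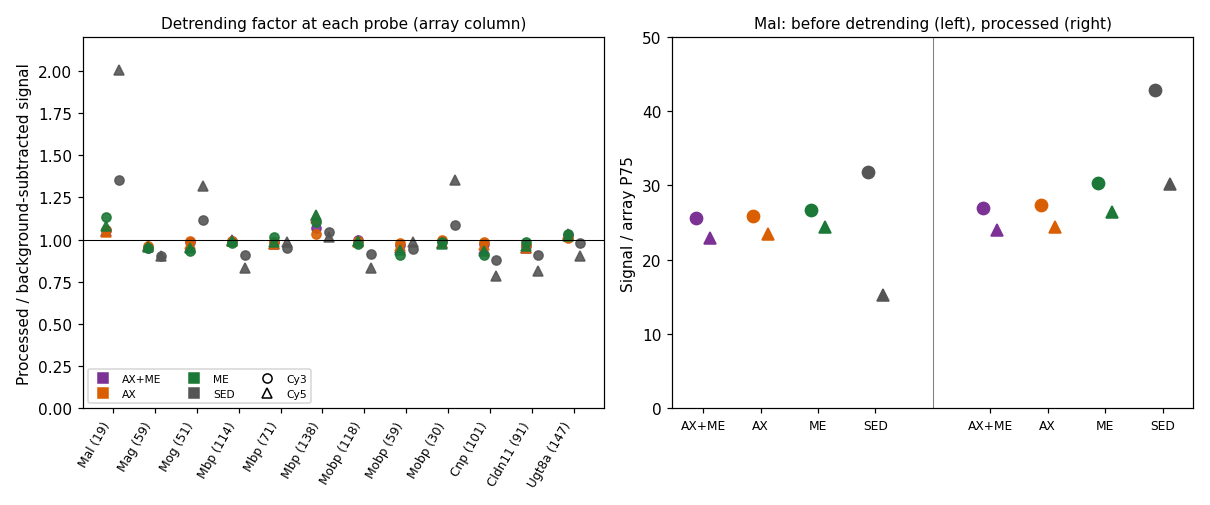
Left, processed over background-subtracted signal (vertical axis, a ratio) at each myelin spot, with the 6 samples of AX+ME, AX and ME left of the 2 SED samples. Right, the Mal signal over the array's 75th percentile before detrending and as processed. The factors at Mal were 1.35 and 2.01 on the SED arrays, against 1.04 to 1.13 on the other arrays.

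Mog encodes a glycoprotein on the outer face of the sheath and is made late in myelination. Its Cy3 ratios were 2.22 in AX+ME, 2.15 in AX and 2.23 in ME, against 2.55 in SED. Its Cy5 ratios were 2.11 in AX+ME, 1.98 in AX and 2.05 in ME, against 2.91 in SED. Both SED samples were above all 6 others. The log2 difference was -0.33 in AX+ME (SE 0.10, adjusted p = 0.121), -0.40 in AX (adjusted p = 0.111) and -0.35 in ME (adjusted p = 0.156) against SED. The detrending factor at Mog was 1.12 and 1.32 on the SED arrays, against 0.932 to 0.993 on the others. Before detrending the log2 differences were -0.024, -0.11 and -0.0039 in AX+ME, AX and ME, so most of the difference was not in the signal before that step. In the processed signal, SED lay above the mean of the other groups by 0.21 in Cy3 and 0.51 in Cy5 (log2). The spots around Mog had 0.16 and 0.021. Which signal is nearer to the RNA of Mog was not tested.

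Mag encodes a glycoprotein of the inner sheath that contacts the axon. Its Cy3 ratios were 22.8 in AX+ME, 22.6 in AX and 22.2 in ME, against 23.4 in SED, and its Cy5 ratios 21.0 in AX+ME, 21.6 in AX and 20.9 in ME, against 24.7 in SED. Both SED samples were again above the other 6. The log2 difference was -0.14 in AX+ME (SE 0.071, adjusted p = 0.273), -0.12 in AX (adjusted p = 0.365) and -0.16 in ME (adjusted p = 0.293). Here the factor was lower on the SED arrays, 0.904 and 0.901, against 0.948 to 0.963 on the others, and before detrending the log2 differences of Mag were -0.23, -0.23 and -0.25 (smallest adjusted p = 0.134, limma).

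Mbp encodes the basic protein that compacts the cytoplasmic faces of myelin. At its probe in column 114 the Cy3 ratios were 12.9 in AX+ME, 12.5 in AX and 13.5 in ME, against 14.7 in SED, and the Cy5 ratios 15.3 in AX+ME, 15.2 in AX and 15.5 in ME, against 16.5 in SED. SED was the highest in each dye, and the groups overlapped across dyes. The log2 difference was -0.15 in AX+ME (SE 0.059, adjusted p = 0.173), -0.18 in AX (adjusted p = 0.163) and -0.11 in ME (adjusted p = 0.365) against SED. The detrending factor there was 0.906 and 0.834 on the SED arrays, against 0.979 to 0.996 on the other 6. Before detrending the differences were -0.36 in AX+ME (adjusted p = 0.0477, past the threshold), -0.39 in AX (adjusted p = 0.0529) and -0.31 in ME (adjusted p = 0.0892, limma). The probe in column 71 gave -0.029, -0.17 and -0.023, and the dim probe in column 138 gave -0.36, 0.089 and -0.22 with an SE of 0.24. The 3 Mbp probes thus disagreed in size, and in AX also in sign.

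Mobp encodes another basic protein of compact myelin, and its brighter probes differed little between groups. Its probe in column 118 averaged 3.92 ± 0.361 in AX+ME, 3.89 ± 0.113 in AX and 4.08 ± 0.0360 in ME, against 4.01 ± 0.150 in SED (SD, n = 2 each). The log2 differences there were -0.038, -0.045 and 0.025 in AX+ME, AX and ME against SED (SE 0.087), and those of the probe in column 59 were -0.0049, 0.0019 and 0.087. The dim probe in column 30 had -0.23, -0.14 and -0.030, with SED samples of 0.680 and 0.454 on either side of the other 6.

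Cnp encodes an enzyme of non-compact myelin that keeps cytoplasmic channels open. It averaged 17.1 ± 0.507 in AX+ME, 16.3 ± 0.566 in AX and 16.8 ± 0.0422 in ME, against 17.4 ± 0.187 in SED (SD, n = 2 each). Cldn11, the claudin of the tight junctions between myelin layers, had Cy3 ratios of 16.3 in AX+ME, 16.0 in AX and 16.2 in ME, against 16.2 in SED. Its Cy5 ratios were 15.8 in AX+ME, 15.8 in AX and 16.5 in ME, against 16.8 in SED. For Cldn11 the 95% interval of the fold against SED ran from 0.878 to 1.08 in AX+ME and from 0.870 to 1.07 in AX. Ugt8a, the enzyme that makes galactosylceramide of the myelin lipids, averaged 1.62 ± 0.148 in AX+ME, 1.68 ± 0.127 in AX and 1.67 ± 0.0497 in ME, against 1.72 ± 0.0153 in SED (SD, n = 2 each). The signal before detrending gave wider gaps for Cnp and Cldn11, since the factor there was lower on the SED arrays than on the other 6. At Cnp it was 0.881 and 0.784 on the SED arrays, against 0.906 to 0.986 on the others. At Cldn11 it was 0.910 and 0.816, against 0.950 to 0.988. Without detrending the log2 differences of Cnp were -0.24, -0.35 and -0.22 in AX+ME, AX and ME against SED (smallest adjusted p = 0.0802, limma). Those of Cldn11 were -0.20, -0.22 and -0.20 (smallest adjusted p = 0.174, limma). The median of all probes tested was then -0.091, -0.11 and -0.13, against -0.031, -0.039 and -0.038 in the processed signal. In the processed signal, leaving out Mal and Mog, the 18 intervals of the fold against SED lay between 0.788 and 1.19. Of these, 1 did not include a fold of 1, that of Mbp (column 114) in AX, from 0.791 to 0.983.

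**Figure D3:**
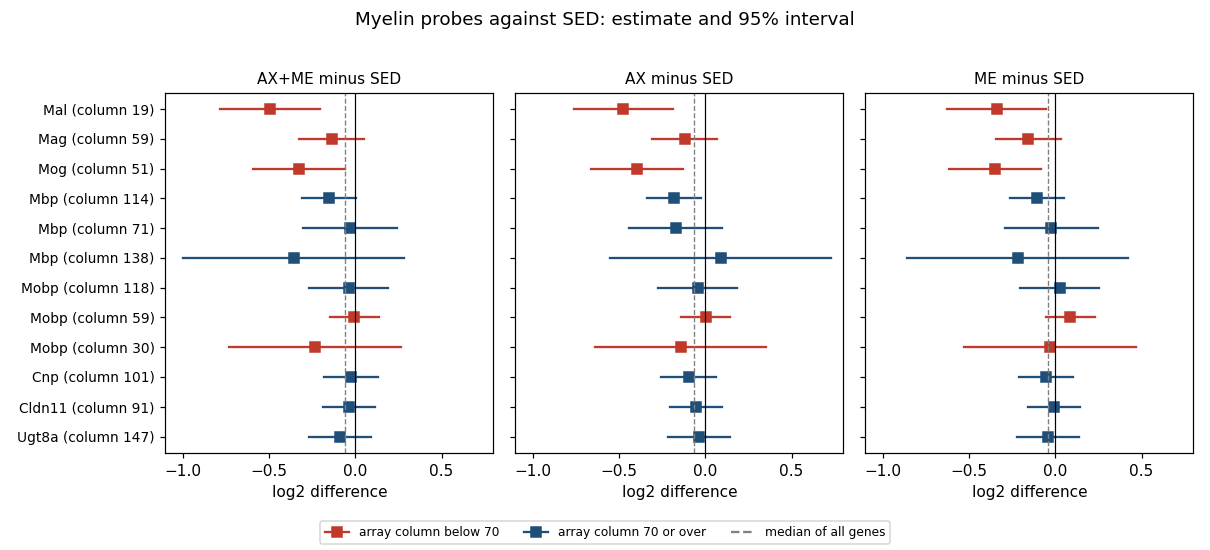
Log2 difference against SED (horizontal axis) of each myelin probe for AX+ME, AX and ME, with 95% intervals from limma. Red probes lie in array columns below 70 and blue ones from 70 on, and the dashed line is the median of all genes. Mal at -0.49, -0.47 and -0.34 and Mog at -0.33, -0.40 and -0.35 are the representative probes furthest from 0.

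The comparisons that do not use SED gave small differences as well. In AX+ME against ME the median of the 8 genes was -0.039 (-0.047 over all 12 probes, the size found in ME against SED over the same 12), with values from -0.15 for Mal to 0.028 for Cnp. In AX+ME against AX it was 0.010, with values from -0.053 for Ugt8a to 0.073 for Cnp. The folds of these 16 values lay between 0.899 and 1.05, with interval bounds of 0.737 and 1.26. The smallest unadjusted p among the 12 probes was 0.156 in AX+ME against ME and 0.129 in AX+ME against AX. For the interaction, Mog had the largest log2 value, 0.42 (SE 0.14, adjusted p = 0.345). Averaged over diets, exercised minus sedentary mice had a median of -0.043, and averaged over activities astaxanthin minus placebo had a median of -0.052. Comparisons against SED share the SED samples.

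The myelin probes were also split by position. The 7 probes from column 70 on had median log2 differences of -0.038, -0.051 and -0.041 in AX+ME, AX and ME against SED, while the 5 below it had medians of -0.23, -0.14 and -0.16. The tested probes as a whole were split the other way, with medians of -0.047, -0.051 and -0.045 from column 70 on and 0.014, -0.0034 and -0.015 below it, and the myelin medians from column 70 on were about those of all probes there. SED was the highest group in both dyes for 3 of 5 myelin probes below column 70 and 1 of 7 from 70 on, where 24.6% and 25.1% of all tested probes did the same. The factor of detrending over the 12 spots spanned 0.881 to 1.35 on the Cy3 SED array and 0.784 to 2.01 on the Cy5 SED array, against 0.906 to 1.14 on the other 6 arrays.

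Of 29 other myelin and oligodendrocyte genes, 28 were tested. Opalin, a membrane protein of oligodendrocytes, was the only one to pass. It was higher, by 0.82 in AX+ME (SE 0.060, adjusted p = 0.0154), 0.74 in AX (adjusted p = 0.0197) and 0.82 in ME (adjusted p = 0.0166) against SED. Its ratios were 1.07 and 1.11 in AX+ME, 1.04 and 1.02 in AX and 1.06 and 1.11 in ME, against 0.627 and 0.608 in SED, and its probe lies in column 55. There the detrending factor was 1.12 and 1.32 on the SED arrays, against 0.949 to 1.00 on the others. Opalin passed before detrending too, at 1.12, 1.02 and 1.15, and in 13 of 20 alternatives in each comparison. The least of its differences, 0.29, 0.25 and 0.29, came when the local deviation around the spot was subtracted, and none passed then (smallest adjusted p = 0.102, limma). Cryab, a small heat shock protein abundant in oligodendrocytes, had log2 differences of -0.29, -0.30 and -0.27 (smallest adjusted p = 0.0579) with a probe in column 32, and of 0.16, 0.15 and 0.19 before detrending. The list's medians were -0.11, -0.10 and -0.097, with 21, 21 and 17 of 28 genes lower than in SED.

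Of 8 oligodendrocyte transcription factors, 0 passed. Olig1, which acts in oligodendrocyte maturation, had log2 differences of 0.20, 0.17 and 0.20 in AX+ME, AX and ME against SED (smallest adjusted p = 0.126), and 0.0058, -0.017 and -0.0092 before detrending. Olig2, which specifies the lineage, had -0.20, -0.25 and -0.23 (smallest adjusted p = 0.221, limma) with a probe in column 32. Its differences were -0.064, -0.13 and -0.11 before detrending, and -0.039, -0.11 and -0.057 with the local deviation subtracted. The list's medians were -0.074, -0.058 and -0.0012. Of 9 genes of precursors and differentiating cells 0 passed, with medians of 0.019, -0.18 and -0.12. Against SED, AX+ME values in that list were lower for 4 of 5 genes from column 70 on and higher for 4 of 4 below it. Of 9 genes of galactolipid synthesis and turnover, and of 10 axon and node partners of myelin, 0 passed. Their medians were 0.064, 0.016 and -0.026 for the galactolipid genes and -0.073, -0.082 and -0.11 for the axon and node genes. The galactolipid medians differed by position. They were 0.60, 0.57 and 0.54 for the 4 genes below column 70, and -0.19, -0.17 and -0.13 for the 5 from 70 on.

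**Figure D4:**
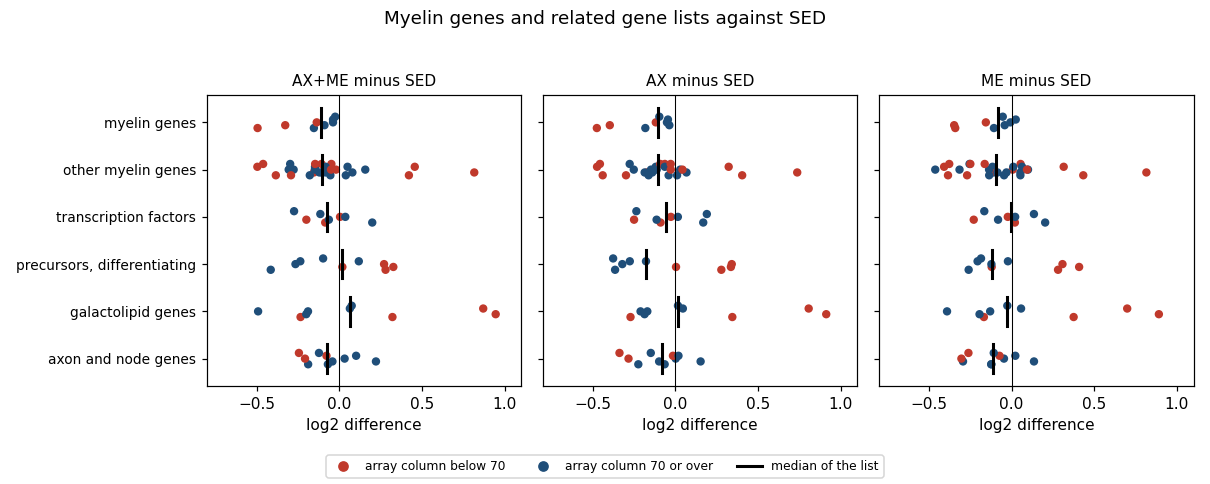
Log2 difference against SED (horizontal axis) of each gene of the myelin list and of 5 related lists, for AX+ME, AX and ME. Points are genes (red, array column below 70; blue, 70 or over) and black bars list medians, which were -0.11, -0.11 and -0.080 for the 8 myelin genes. Opalin is the point at 0.82, 0.74 and 0.82 among the other myelin genes.

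Markers of other cells were set beside these values. Of 6 choroid plexus markers, 5 passed as lower in AX+ME than in SED and 1, Otx2, in ME. The transcription factor Otx2 (column 154) fell by 0.60 in AX+ME and by 0.50 in ME, and Folr1, Clic6 and Kcnj13 fell by 0.55, 0.46 and 0.54 in AX+ME. The choroid probes all lie from column 70 on, and in the fit of those columns alone 0 of 6 passed (smallest adjusted p = 0.0592 in AX+ME, 0.117 in AX and 0.119 in ME, limma). Ttr, named after its values were seen, was saturated on all 8 arrays. The summed ratio of the other 5 markers was 17.0 and 17.0 in AX+ME, 22.5 and 22.8 in AX and 18.0 and 18.5 in ME, against 24.2 and 23.5 in SED. With Ttr the sums were 52.0 to 54.3 in AX+ME, 54.4 to 63.8 in AX and 50.0 to 61.3 in ME, against 52.9 to 71.2 in SED. Of 6 meningeal fibroblast markers, the collagens Col3a1 and Col1a2 fell by 0.83 and 0.46 in ME, and Col3a1 fell by 0.57 in AX. In the fit from column 70 on these collagens did not pass (smallest adjusted p of the list 0.100 in ME and 0.0972 in AX, limma). Among other lists the astrocyte glutamate transporter Slc1a3 rose by 1.01, 1.03 and 1.11 in AX+ME, AX and ME (column 57). The astrocyte list's medians were -0.054, -0.041 and -0.026, with 4 of 7 markers lower in each. The endothelial receptor Flt1 fell by 0.54 in AX+ME (column 66), where 3 of 5 endothelial markers were lower, with a median of -0.0074. The Schwann cell gene Prx rose by 0.82 in AX+ME (column 50), where 2 of 4 tested genes of its list were higher. With the local deviation subtracted, the AX+ME differences were 0.51 for Slc1a3, -0.39 for Flt1 and 0.32 for Prx. None of these genes passed then (smallest adjusted p = 0.0943, 0.0513 and 0.166, limma). The summed Schwann cell ratio was 2.49 to 2.59 in AX+ME, 2.42 to 2.54 in AX and 2.37 to 2.59 in ME, against 2.49 to 2.62 in SED. No neuron, microglia or hippocampal neuron marker passed in the comparisons against SED, but 3 of the 7 neuron markers were saturated on at least 1 array. The part of these cells in the myelin values was not tested.

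The profiles of the 8 genes over the samples were alike only in part. After the dye mean was removed, the 28 pairs of genes had a median Pearson r of 0.54 over 8 samples, from -0.30 to 0.96, and 24 pairs were positive. The points share arrays and scaling, and no values for pairs of other genes stand beside these. The genes with the profile most like the mean of the 8 were Ccdc166, Nudc, Wwp1, Itga1 and Sdf2l1 (r of 0.990 to 0.991 over 8 samples), and those least like it Gm11563, Gm14151, Cpsf4, Adam1a and Klf8 (r of -0.983 to -0.978). Among all 15618 other genes 41.9% had an r over 0.5, and among 26 other myelin genes 53.8% did. In the remaining lists the share ran from 33.3%, as for astrocyte markers, to 50%, as for microglia markers. The median r was 0.57 for the other myelin genes, 0.55 for microglia markers and 0.32 for all other genes.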

How the data were processed

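RNA was labelled with a two-colour kit and read on SurePrint G3 8x60K arrays. Per the submitters' processing notes, the deposited intensity values were extracted with Agilent Feature Extraction (version 11.0.1.1). Per the file headers, extraction was 2-channel with spatial and multiplicative detrending, on a probe design for mm9. The deposited intensity table matched the own-dye processed signal within 0.5. The myelin genes, lists and motifs were chosen with earlier results of these data known. Control and non-uniform spots were left out, spots of a probe were averaged, and each array was divided by its 75th percentile (1239 to 2036) and floored at 0.005. The 37415 probes that some group had well above background on each of its arrays entered limma 3.58.1 in R 4.3.3, with group and dye terms, all 8 samples and Benjamini-Hochberg adjustment. The model had 3 residual and 1.53 prior degrees of freedom. The fit was tested on simulated data with changes larger than any myelin difference here and without position effects. That test does not cover small changes or the dim areas. Symbols came from accessions and were found for 26567 probes. The representative probe of a gene is the brightest unsaturated one from column 70 on, or else the brightest unsaturated one. Besides all myelin probes, the text names list members past the threshold (at most 4 a list, by p), the 2 other myelin genes and 2 transcription factors with the smallest F-test p, and the 5 genes most and 5 least like the myelin mean. The 21 alternative fits include 2 chosen after seeing the data, the local correction and the signal before detrending, as was a summary over the myelin probes from column 70 on. The normexp alternative used median in place of mean spot signals. These were taken before detrending, so it is not independent of the alternative on the signal before detrending. Replicate numbers were given in accession order and are names only. The dye term is the block within groups.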

Additional observations from a re-analysis of the deposited data

Results flagged for a closer look

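For 4 genes both dyes gave 1 direction of an effect in one pair of groups and the opposite direction in the other pair. The interaction was tested by limma and did not pass for any of them. Exercised mice had lower values than sedentary mice on placebo and higher values on the astaxanthin diet for Mbp at its probe in column 114 (interaction 0.13, adjusted p = 0.563), Mog (interaction 0.42, adjusted p = 0.345) and Cnp (interaction 0.13, adjusted p = 0.590). The other Mbp probes did not show this: the probe in column 138 was lower in both pairs (-0.22 on placebo and -0.45 on astaxanthin), and the probe in column 71 differed in sign between the dyes on placebo (0.13 in Cy3 and -0.17 in Cy5). Mice on astaxanthin had lower values than mice on placebo when sedentary and higher values when exercised for Mag (interaction 0.14, adjusted p = 0.620). Such opposite directions were held by 3 of 8 myelin genes for exercise, against 16.2% of all 16078 genes, and by 1 of 8 for astaxanthin, against 13.0%. The SED samples enter each of these values, and the detrending factors at Mog were 1.12 and 1.32 on the SED arrays.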

How the results depend on the processing

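Over 21 alternative fits, 1944 single-probe values gave 18 that passed the threshold where the main value did not (13 of them without an SED sample), no call of the opposite sign, and 166 changes of sign among values that passed in neither. A myelin probe passed in AX+ME against SED with quantile normalization (1, Mal), trend and robust variance (1, Mal), normexp (1, Mbp) and the signal before detrending (1, Mbp), and in AX against SED with normexp (1, Mbp). Leaving out samples gave 0 to 2 in AX+ME, 0 to 2 in AX and 0 to 1 in ME against SED, 0 to 1 for the interaction and 0 to 2 for astaxanthin, and each count above 0 came without an SED sample. Without the dye term as the replicate block, 0 myelin probes passed. The Mal differences in AX+ME, AX and ME against SED turned positive before detrending (0.14, 0.16, 0.21) and with normexp (0.081, 0.15, 0.21). The normexp fit also starts from signals without detrending, so these 2 alternatives are not independent.

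The median of the myelin genes moved as follows, in AX+ME, AX and ME against SED: before detrending -0.23, -0.22 and -0.20; normexp -0.22, -0.22 and -0.19; quantile -0.039, -0.017 and -0.049; percentile over probes detected everywhere -0.067, -0.064 and -0.069; columns from 70 on, refitted or not, -0.038, -0.051 and -0.041; local deviation subtracted -0.14 in AX+ME and -0.12 in ME. In AX+ME against ME it was 0.021 with quantile, -0.0038 with the other percentile, -0.015 with the local correction and -0.047 from column 70 on. In AX+ME against AX it was 0.013 from column 70 on, 0.0033 with the brightest probe and 0.0081 with the local correction. The interaction gave 0.021 from column 70 on, 0.077 with quantile, 0.19 with normexp and 0.20 before detrending. Exercised minus sedentary gave 0.0032 from column 70 on, -0.064 with normexp, -0.075 with the local correction and -0.087 before detrending. Astaxanthin minus placebo gave -0.042 from column 70 on, -0.015 with quantile, -0.013 with the other percentile, -0.11 with normexp, -0.063 with the local correction and -0.11 before detrending. Leaving out 1 sample gave medians of -0.14 to -0.073, -0.13 to -0.081 and -0.086 to -0.066 in AX+ME, AX and ME against SED, -0.039 to -0.0088 in AX+ME against ME, 0.0041 to 0.041 in AX+ME against AX, 0.094 to 0.14 for the interaction, -0.053 to -0.031 for exercise and -0.086 to -0.038 for astaxanthin. The causes were not tested.

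Over all probes, 1772, 872 and 774 passed in AX+ME, AX and ME against SED. The counts were 4481, 2457 and 1587 before detrending, 6182, 4060 and 1850 with normexp, 4168, 2810 and 2016 with trend and robust variance, 3114, 1811 and 1276 for probes detected on all arrays, 736, 411 and 436 with the local correction, and 2, 0 and 0 from column 70 on. Without the dye term 1171 passed in AX+ME. Without the Cy3 SED sample 6313, 5846 and 5561 passed, and without the Cy5 SED sample 1949, 1518 and 1404. Without any 1 of the other samples 0 to 3 passed. A lone sample was assumed to vary like the others. For the interaction, exercise and astaxanthin 69, 167 and 131 probes passed, with 0 to 545, 0 to 664 and 0 to 864 under the other settings and 0 to 3007, 0 to 3067 and 0 to 3710 with 1 sample left out. In AX+ME against ME and against AX the counts were 0, with 2 and 1 without the filter on dim probes and up to 3 and 5 with a sample left out. Slide position and group cannot be told apart, and no alternative shows which signal is nearer to the RNA level.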
